A study of Mus musculus with 7 samples.

Results

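The insulin receptor, its docking proteins, PI3-kinase, AKT, the FOXO factors and the insulin-regulated glucose carrier were followed as messenger RNA in mouse left ventricle, through the 10 genes Insr, Irs1, Irs2, Pik3r1, Pik3ca, Akt1, Akt2, Foxo1, Foxo3 and Slc2a4. They were taken by symbol from the 22027 genes of the deposited tables, and all 10 were found and tested among 12674 genes with enough reads. Insulin binds its receptor on the cell surface, and the receptor phosphorylates the docking proteins IRS1 and IRS2. These recruit PI3-kinase, whose lipid product brings AKT kinases to the membrane, and active AKT sends GLUT4 vesicles to the cell surface and keeps FOXO transcription factors out of the nucleus. In cardiac muscle this pathway is known for its control of glucose uptake, cell size, autophagy and protein breakdown. Most of that control acts on proteins and their phosphorylation, which were not measured here.

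The compared groups were 3 libraries labelled G3 PGC1aOE, from telomerase-deficient mice in which PGC1alpha was overexpressed, and 4 libraries labelled G3, from telomerase-deficient mice without it. All 7 carried the strain name C57BL/6J, an age of 12 months and left ventricle as the tissue, so telomerase deficiency was common to both groups and no library came from a mouse with intact telomerase. PGC1alpha, encoded by Ppargc1a, is a transcriptional coactivator of mitochondrial genes, and the comparison asks how heart RNA differs when it is overexpressed on this background. The promoter or cell type that drives PGC1alpha is not given in the sources used here. Whether any of the libraries come from the same animal or litter is not stated, and p-values therefore measure no more than the spread between these samples. Total counts ran from 10106705 to 16056740 per library, and no pair of libraries held identical values.

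The libraries were checked in 3 ways that touch the 10 genes. Ppargc1a (ENSMUSG00000029167) stood at 103, 43.9 and 58.1 CPM (read counts relative to the library total, scaled by TMM) in G3 PGC1aOE 1 to 3, against 94.7, 56.8, 118 and 86.7 CPM in G3 1 to 4. The groups overlapped, with a log2 fold change of -0.38 and an SE of 0.34 (edgeR, adjusted p = 0.847). The 95% interval ran from -1.12 to 0.36, so the measured message does not bear out the label. Each direction below rests on the label, not on the measured Ppargc1a message. Summed over 10 ventricular cardiomyocyte markers, the libraries held 54300 to 77000 CPM in G3 PGC1aOE and 49600 to 67500 CPM in G3. The sum over 10 fibroblast markers was 1240 to 1810 CPM in G3 PGC1aOE and 628 to 1190 CPM in G3, the only one of 9 marker lists apart from liver whose sums did not overlap. Endothelial marker sums were 1110, 2720 and 1780 CPM in G3 PGC1aOE 1 to 3 and 1090 to 1590 CPM in G3, and smooth muscle and pericyte sums were 462, 1000 and 709 CPM in G3 PGC1aOE 1 to 3 and 440 to 666 CPM in G3. Both were highest in G3 PGC1aOE 2 and 3, which were also the lowest libraries for most of the 10 genes. Liver transcripts, from 3 genes, came to 4.30 to 28.3 CPM in G3 PGC1aOE and 0.897 to 3.47 CPM in G3. No listed marker was at 0 in every library. In bulk tissue, fewer cells of a type and less RNA per cell cannot be told apart, and the part of these markers in the results was not tested.

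The promoters of the 2 docking protein genes are shown because Irs1 and Irs2 varied more between libraries than any other of the 10 genes, as described below, and because both windows hold the same pair of letter motifs. RefSeq windows on build GRCm38.p6, running from 250 bases before to 50 bases after a transcription start, were found for 8 of the 10 genes, 13 windows in all, with none matched for Insr and Slc2a4. The 250 bases before the start are printed 5′ to 3′ on the strand of the gene, with capitals marking CACGTG, an E-box motif, and TGTTTTG, which is the reverse complement of CAAAACA, a core bound by FOXO factors in insulin response elements. The Irs1 window lies at chr1:82291440-82291689 on the minus strand and the Irs2 window at chr8:11008930-11009179 on the minus strand.
Irs1: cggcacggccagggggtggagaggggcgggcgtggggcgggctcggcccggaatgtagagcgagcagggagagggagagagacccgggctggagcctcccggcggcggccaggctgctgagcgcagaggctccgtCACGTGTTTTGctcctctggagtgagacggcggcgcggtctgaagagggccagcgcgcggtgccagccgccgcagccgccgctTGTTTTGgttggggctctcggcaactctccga
Irs2: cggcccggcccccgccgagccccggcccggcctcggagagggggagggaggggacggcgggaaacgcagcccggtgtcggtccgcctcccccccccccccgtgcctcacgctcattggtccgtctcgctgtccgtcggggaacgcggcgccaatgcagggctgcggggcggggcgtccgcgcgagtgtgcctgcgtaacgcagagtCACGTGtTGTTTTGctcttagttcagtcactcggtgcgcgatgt
In Irs1 the motif CACGTG began at base 136 and TGTTTTG at base 140, so that their letters overlapped, and TGTTTTG was found again at base 219. In Irs2 they began at bases 207 and 214. The 250 printed bases held 72.4% G or C in Irs1 and 72.8% in Irs2.

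The motifs and their pairing were chosen after these sequences had been seen. Searched on both strands, CAAAACA was present in 6.28% of all 32851 RefSeq promoter windows of the same length and CACGTG in 7.15%. Starts of the 2 motifs lay at most 10 bases apart in 9 windows, or 0.0274%, which belonged to the 8 genes Irs1, Irs2, Irs4, Klf11, Pcbp1, Pyroxd1, 1700019P21Rik and Gm38926. Irs4, which encodes another docking protein of the family, had too few reads to be tested. Of 3 further motifs, the FOXO core GTAAACA was found in 1 window of Akt1 and in 3.65% of all windows. The core AAGGTCA, bound by estrogen-related receptors, was in no window of the 10 genes and in 4.72% of all windows, and the CREB motif TGACGTCA was likewise in none and in 1.79% of all windows. A match is a stretch of letters and not a binding site, and a window without a match says nothing of the factor.

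None of the 10 genes passed the test between the groups, and 0% of all tested genes passed at an adjusted p of 0.05 (edgeR's quasi-likelihood test, Benjamini-Hochberg over 12674 genes). At an unadjusted p under 0.05 there were 0 of the 10 genes, against 4.32% of all tested genes, or 548, of which 387 were higher and 161 lower in libraries labelled G3 PGC1aOE. All 10 fitted log2 fold changes lay below 0, where 49.1% of all tested genes did. Their median was -0.41, against 0.01 over all tested genes. The 10 genes were chosen with earlier results of these data known, and they share the same 7 libraries. No gene of the 10 separated the groups, while 2.39% of all tested genes were lower in every G3 PGC1aOE library than in every G3 library. The median of the 10 genes was -0.86 without G3 PGC1aOE 1, which also brought 5 of them and 2464 of all tested genes to an unadjusted p under 0.05, still with 0 called. It was -0.32 without G3 PGC1aOE 2, when 8 of 10 lay below 0, and -0.28 without G3 PGC1aOE 3, when 9 did. Without G3 PGC1aOE 1 the fold changes were -1.33 for Insr, -1.38 for Pik3r1, -0.69 for Pik3ca and -1.03 for Foxo3, each over 1.5 times that with all 7 libraries. Insr was at -0.29 without G3 PGC1aOE 2 and -0.36 without G3 PGC1aOE 3, Pik3ca at -0.23 and -0.24, and Foxo3 at -0.34 and -0.20. Slc2a4 was at -0.43 without G3 PGC1aOE 2 and -0.16 without G3 PGC1aOE 3.

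**Figure D1:**
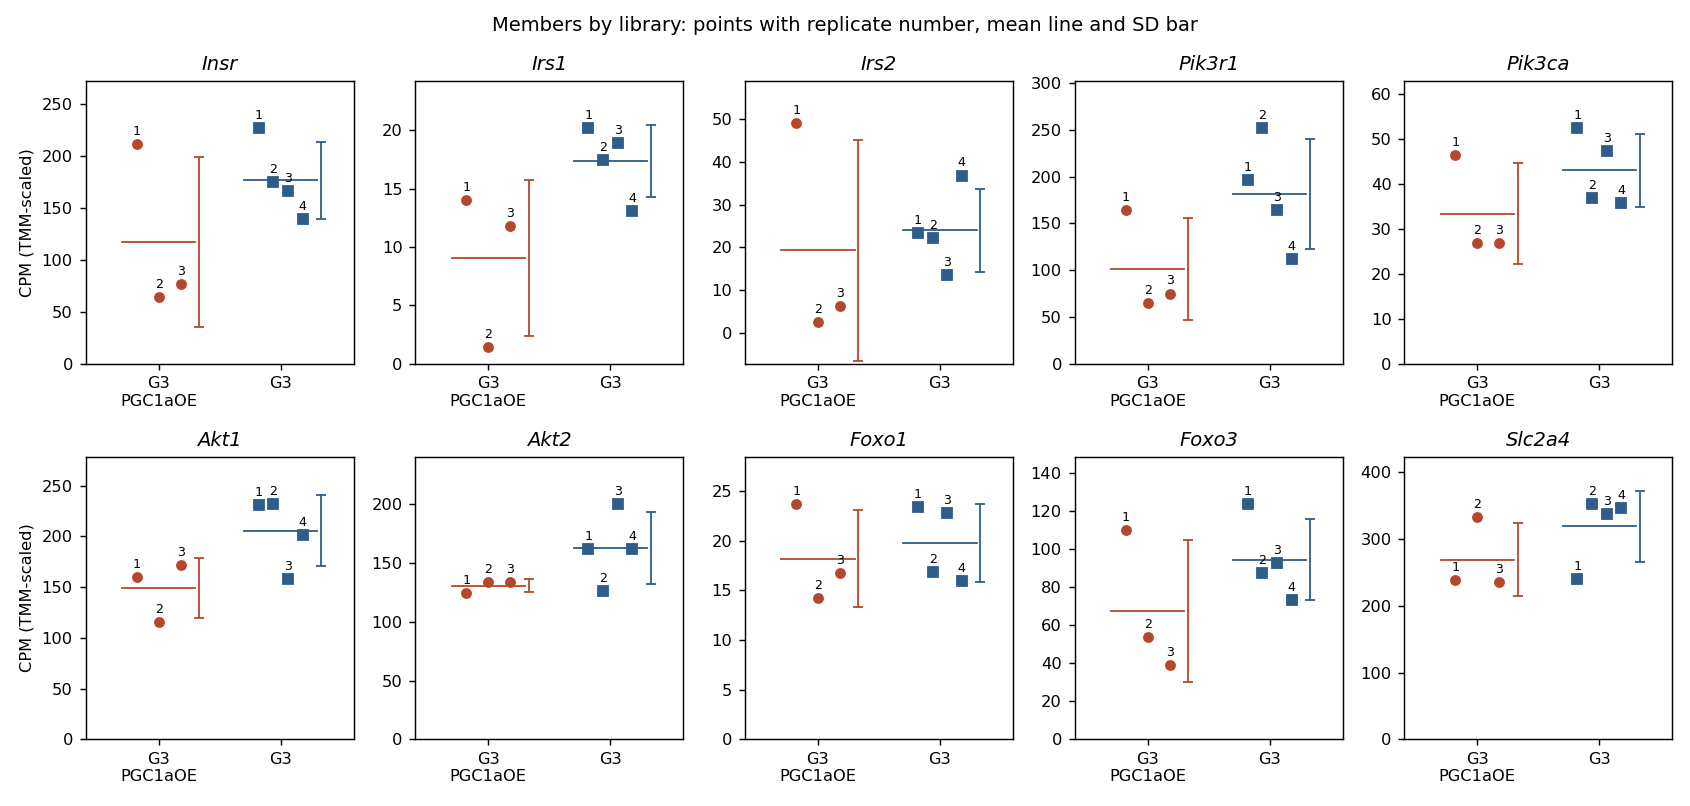
Scaled read counts (CPM, vertical axis, from 0 except where the error bar of Irs2 reaches below it) of the 10 genes in 3 libraries labelled G3 PGC1aOE (red circles) and 4 labelled G3 (blue squares), with replicate numbers, the mean as a line and the SD as a bar. The groups overlap in every panel, and G3 PGC1aOE 2 and 3 are the 2 lowest libraries for Insr, Irs1, Irs2, Pik3r1, Pik3ca and Foxo3.

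At the head of the pathway, Insr (ENSMUSG00000005534), the insulin receptor, had 212, 64.6 and 76.5 CPM in G3 PGC1aOE 1 to 3, against 227, 175, 166 and 139 CPM in G3 1 to 4. G3 PGC1aOE 2 and 3 lay below every G3 library and G3 PGC1aOE 1 lay among them. The means were 118 ± 82 CPM (SD, n = 3) in G3 PGC1aOE and 177 ± 36.9 CPM (SD, n = 4) in G3, and the fitted log2 fold change was -0.59 ± 0.40 (SE), its 95% interval running from -1.47 to 0.30 (edgeR, adjusted p = 0.847). The other tested receptors of this family of ligands were the IGF1 receptor gene Igf1r, at -0.89 ± 0.42 (SE), and Igf2r, which clears IGF2 from the cell surface, at -0.44, and neither passed. All 3 tested receptor genes lay below 0, with a median of -0.59. Insrr, the insulin receptor-related receptor, had too few reads to be tested.

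The docking protein gene Irs1 (ENSMUSG00000055980) had 14, 1.46 and 11.8 CPM in G3 PGC1aOE 1 to 3, against 20.2, 17.5, 18.9 and 13.1 CPM in G3 1 to 4. G3 PGC1aOE 2 stood far below all others, with 20 reads where the other 6 libraries had 160 to 237, and G3 PGC1aOE 1 and G3 4 kept the groups overlapping. The exact Poisson interval on its level was 0.889 to 2.25 CPM, which covers counting error only. Its log2 fold change, -0.94 ± 0.58 (SE), had a 95% interval of -2.25 to 0.36 (edgeR, adjusted p = 0.847). Without G3 PGC1aOE 2 the fitted fold change was -0.43. The difference of group means of log2 CPM over all 7 libraries was -1.42, against the fitted -0.94.

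Irs2 (ENSMUSG00000038894), which encodes the second docking protein, had 49.1, 2.55 and 6.26 CPM in G3 PGC1aOE 1 to 3, against 23.4, 22.2, 13.4 and 36.8 CPM in G3 1 to 4. The libraries labelled G3 PGC1aOE held both the highest and the 2 lowest of the 7 values. Their exact Poisson intervals were 45.4 to 53.1 CPM in G3 PGC1aOE 1, 1.77 to 3.54 CPM in G3 PGC1aOE 2 and 5 to 7.74 CPM in G3 PGC1aOE 3, so the spread inside the group exceeded counting error. Over the group, the log2 fold change of -0.31 ± 0.91 (SE) had a 95% interval of -2.47 to 1.84 (edgeR, adjusted p = 0.946). Leaving out G3 PGC1aOE 1 gave -2.45, leaving out G3 PGC1aOE 2 gave 0.20 and leaving out G3 PGC1aOE 3 gave 0.10. For this gene, leaving out either G3 PGC1aOE 2 or G3 PGC1aOE 3 thus turned the sign of the fitted value. The size depended on the scale, since the difference of group means of log2 CPM over all 7 libraries was -1.26.

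Among docking and adaptor genes, 7 of 11 tested had a fold change below 0 in G3 PGC1aOE and 4 above, Irs1 and Irs2 included, with a median of -0.21 and none called. With Irs1 and Irs2 set aside, 5 of 9 lay below 0, with a median of -0.13. Cbl, a ubiquitin ligase, was at -0.64 ± 0.48 (SE). Dok1, a docking protein that restrains RAS signalling, was at 0.44 ± 0.41 (SE).

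Pik3r1 (ENSMUSG00000041417), the p85alpha regulatory subunit of PI3-kinase, had 164, 64.7 and 75.1 CPM in G3 PGC1aOE 1 to 3, against 197, 252, 164 and 112 CPM in G3 1 to 4. As for Insr, G3 PGC1aOE 2 and 3 lay below every G3 library, and G3 PGC1aOE 1 lay at the level of G3 3. Its log2 fold change of -0.84 ± 0.38 (SE), with a 95% interval of -1.69 to 0.01, was the one nearest the threshold among the 10 genes (edgeR, unadjusted p = 0.0514, adjusted p = 0.847).

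Pik3ca (ENSMUSG00000027665), the p110alpha catalytic subunit, had 46.4, 26.8 and 26.9 CPM in G3 PGC1aOE 1 to 3, against 52.4, 36.9, 47.3 and 35.7 CPM in G3 1 to 4. The same 2 libraries were lowest, in a narrower range. The fitted difference on the log2 scale was -0.37 ± 0.26 (SE), with a 95% interval of -0.94 to 0.21 (edgeR, adjusted p = 0.847). Over 10 PI3-kinase subunit genes, a list that also holds the class III genes Pik3c3 and Pik3r4, 7 had a fold change below 0 and 3 above, with a median of -0.20. Setting aside Pik3r1 and Pik3ca left 5 of 8 below 0, with a median of -0.13. Pik3cb, the p110beta catalytic subunit, was at -0.54 ± 0.27 (SE), and Pik3c3 was at -0.13 ± 0.20 (SE). Pik3r4, the scaffold of the class III enzyme, was at -0.33 ± 0.19 (SE), and none of these passed. Pik3r4 was lower in every G3 PGC1aOE library than in every G3 library, as were 2.39% of all tested genes.

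Akt1 (ENSMUSG00000001729), the AKT form best known for growth control, had 160, 116 and 172 CPM in G3 PGC1aOE 1 to 3, against 231, 232, 158 and 201 CPM in G3 1 to 4. Only G3 3 reached down into the range of G3 PGC1aOE. The means were 149 ± 29.3 CPM (SD, n = 3) in G3 PGC1aOE and 206 ± 34.6 CPM (SD, n = 4) in G3, and the log2 fold change was -0.46 ± 0.25 (SE), with a 95% interval of -1.02 to 0.10 (edgeR, adjusted p = 0.847).

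Akt2 (ENSMUSG00000004056), the form tied to insulin-driven glucose uptake, had 124, 134 and 134 CPM in G3 PGC1aOE 1 to 3, against 162, 126, 200 and 162 CPM in G3 1 to 4. The 3 libraries labelled G3 PGC1aOE lay close together around the lowest G3 library. They gave a log2 fold change of -0.31 ± 0.23 (SE) with a 95% interval of -0.83 to 0.20 (edgeR, adjusted p = 0.847). Reads of Akt2 are uncertain in part, since 16.0% of its stretches of 50 bases also occur in the pseudogene Akt2-ps. Among 9 AKT and activating kinase genes, Akt1 and Akt2 included, 6 had a fold change below 0 and 3 above, with a median of -0.12. Apart from Akt1 and Akt2, 4 of 7 lay below 0, with a median of -0.05. Pdpk1, the kinase PDK1 that phosphorylates AKT, was at -0.60 ± 0.33 (SE). Prr5, a subunit of mTORC2, was at 0.70 ± 0.45 (SE), and neither passed.

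Foxo1 (ENSMUSG00000044167), a FOXO factor that AKT holds in the cytoplasm, had 23.7, 14.2 and 16.7 CPM in G3 PGC1aOE 1 to 3, against 23.4, 16.8, 22.8 and 15.9 CPM in G3 1 to 4. Both groups spanned nearly the same range, and the highest of the 7 values was in G3 PGC1aOE 1. The fitted fold change, -0.12 ± 0.25 (SE) on the log2 scale, was the smallest of the 10, with a 95% interval of -0.67 to 0.43 (edgeR, adjusted p = 0.925).

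Foxo3 (ENSMUSG00000048756), the FOXO factor known for driving atrophy and autophagy genes in muscle, had 110, 53.9 and 39.1 CPM in G3 PGC1aOE 1 to 3, against 124, 87.7, 92.9 and 73.6 CPM in G3 1 to 4. G3 PGC1aOE 2 and 3 were again below every G3 library and G3 PGC1aOE 1 above all of them but G3 1. This gave a log2 fold change of -0.48 ± 0.35 (SE) with a 95% interval of -1.25 to 0.29 (edgeR, adjusted p = 0.847). Of 10 FOXO factors and partners, Foxo1 and Foxo3 included, 6 had a fold change below 0 and 4 above, with a median of -0.15. Apart from Foxo1 and Foxo3, 4 of 8 lay below 0, with a median of -0.07. The acetyltransferase gene Ep300 was at -0.47 ± 0.23 (SE) and Foxo4 at -0.29 ± 0.21 (SE). Sgk1, a kinase that also phosphorylates FOXO factors, was at 0.30 ± 0.23 (SE).

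Slc2a4 (ENSMUSG00000018566), which encodes the insulin-regulated glucose carrier GLUT4, had 239, 333 and 236 CPM in G3 PGC1aOE 1 to 3, against 240, 353, 338 and 347 CPM in G3 1 to 4. Its order of libraries differed from that of Insr, since G3 PGC1aOE 2 was the highest of its group and G3 1 stood with G3 PGC1aOE 1 and 3. Between the groups the log2 fold change was -0.25 ± 0.26 (SE), with a 95% interval of -0.82 to 0.33 (edgeR, adjusted p = 0.853). Of 19 tested genes of glucose carriers and GLUT4 traffic, 14 had a fold change below 0 and 5 above, with a median of -0.16. Setting aside Slc2a4 left 13 of 18 below 0, with a median of -0.15. The MEF2 factors, which bind the Slc2a4 promoter, were at -0.36 ± 0.27 (SE) for Mef2a and -0.37 ± 0.23 (SE) for Mef2d. Sort1, the sortilin gene of GLUT4 storage vesicles, was at -0.32 ± 0.20 (SE), and none passed.

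**Figure D2:**
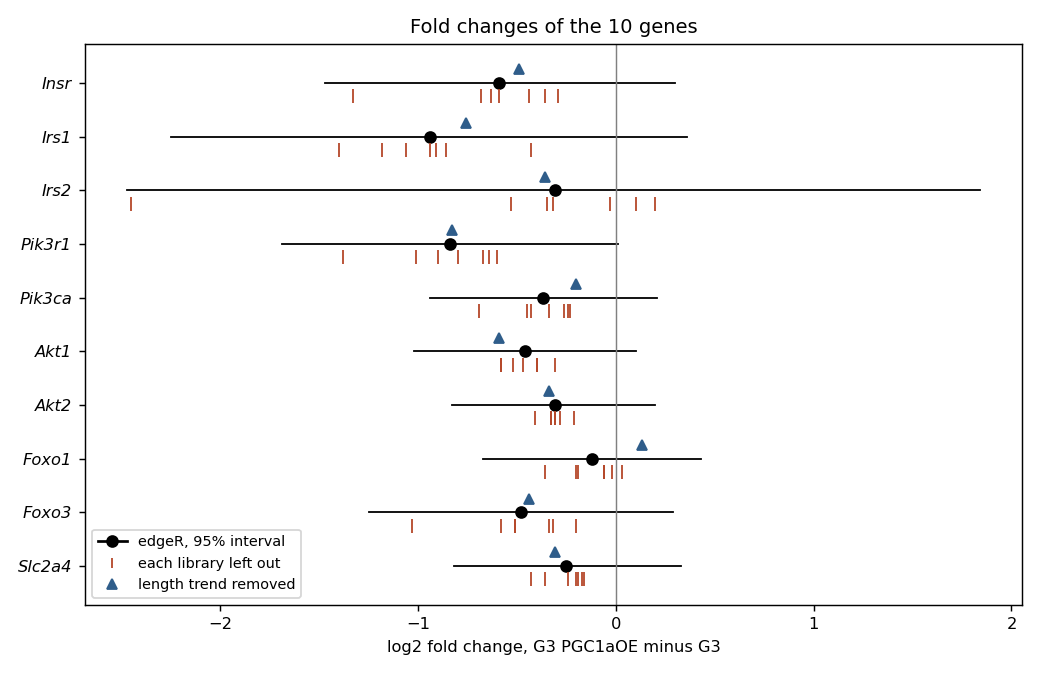
Log2 fold change, G3 PGC1aOE minus G3 (horizontal axis), of the 10 genes from edgeR (black points) with 95% intervals (lines), with each of the 7 libraries left out in turn (red ticks) and with the trend on gene length removed (blue triangles). All 10 points lie left of 0 and all intervals include 0, and the values of Irs2 with a library left out run from -2.45 to 0.20.

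The 10 genes differed in how much they varied between libraries. The SD of log2 CPM over the 7 libraries was 1.47 for Irs2 and 1.27 for Irs1, against a median of 0.37 over all tested genes. Among genes within 0.5 log2 units of their own level, 99.5% varied less than Irs2 and 99.2% less than Irs1. Pik3r1 followed at 0.73, Insr at 0.71 and Foxo3 at 0.59, with 95.6%, 93.9% and 88.8% of genes of like level varying less. Pik3ca at 0.39, Akt1 at 0.35, Foxo1 at 0.30, Slc2a4 at 0.28 and Akt2 at 0.25 lay near or below the median. Receptor and docking genes together with the regulatory subunit and Foxo3 thus spread widely, and the AKT and glucose carrier genes little. The highest library exceeded the lowest 19.3-fold for Irs2 and 13.8-fold for Irs1, and 1.5-fold for Slc2a4.

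The spread followed libraries across genes. G3 PGC1aOE 2 had the lowest of the 7 values for 7 of the 10 genes, where 27.2% of all tested genes were lowest in that library. The same library was the highest for 26.2% of all tested genes, and for 0 of the 10 genes. It had the lowest value also for 40 of the 107 other tested genes of the pathway lists, or 37.4%. G3 PGC1aOE 3 was lowest for 2 of the 10 genes and G3 PGC1aOE 1 for 1, against 13.9% and 11.1% of all tested genes. Measured from the mean of each gene over the 7 libraries, the 10 genes had a median of 0.31 log2 units in G3 PGC1aOE 1, -0.57 in G3 PGC1aOE 2 and -0.40 in G3 PGC1aOE 3. In G3 1 to 4 it was 0.52, 0.30, 0.27 and 0.07, while over all tested genes the medians of the 7 libraries lay between 0.00 and 0.03. G3 PGC1aOE 1 thus stood with the G3 libraries for most of the 10 genes. No G3 library was the lowest for any of them. Of all tested genes, 13.8%, 8.67%, 16.0% and 9.37% were lowest in G3 1 to 4.

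**Figure D3:**
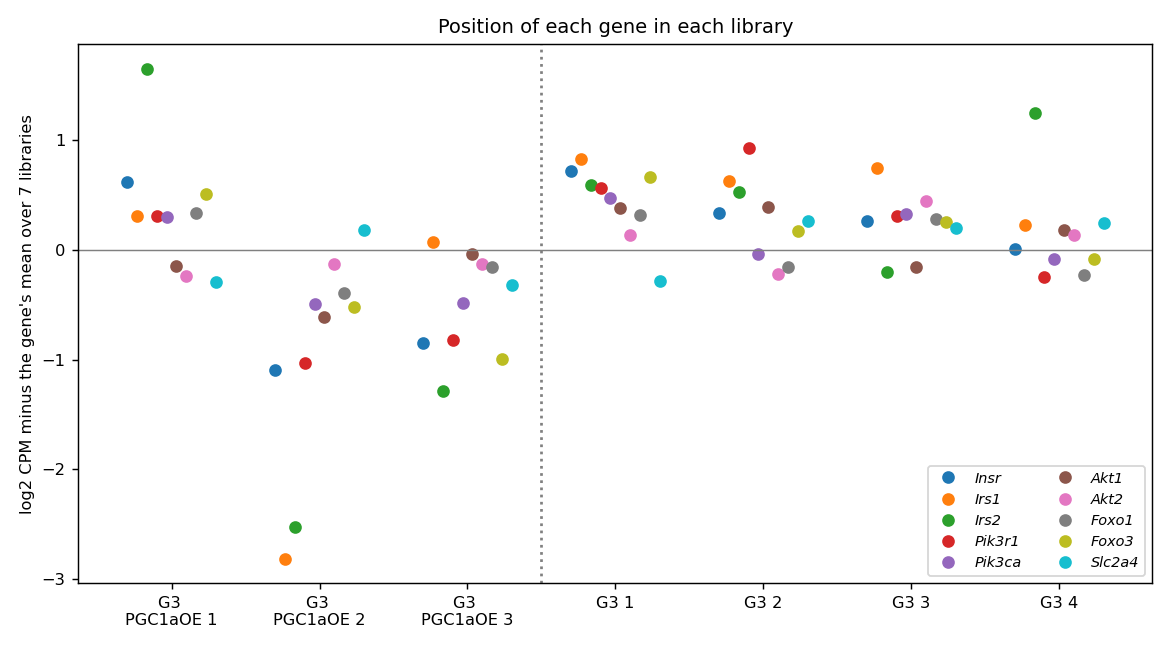
Log2 CPM of each of the 10 genes (colours) minus the mean of that gene over the 7 libraries (vertical axis), by library, with the 3 libraries labelled G3 PGC1aOE left of the dotted line and the 4 labelled G3 right of it. G3 PGC1aOE 2 and 3 lie mostly below 0, with Irs1 and Irs2 lowest in G3 PGC1aOE 2, and G3 PGC1aOE 1 lies mostly above 0.

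Other properties of the libraries moved along the same lines. The description of each sample holds a code of letters and a number, without a key. It was PCG2_55, PCG3_81 and PCG3_82 in G3 PGC1aOE 1 to 3 and CG2_40, CG3_67, G2_50 and PG3_83 in G3 1 to 4. G3 PGC1aOE 1, G3 1 and G3 3 are thus coded G2 where their label says G3, and G3 PGC1aOE 1 is the library of its group that stood with the G3 libraries. What the letters stand for is not stated, and the groups were taken from the genotype label. The letters P and C stood together in all 3 codes of libraries labelled G3 PGC1aOE and in no code of a G3 library. Among the G3 libraries, G3 1 and G3 2 had C without P, G3 4 had P without C and G3 3 had neither. With the G2 or G3 of the code as a covariate, the median of the 10 genes was -0.46 and 0 genes were called. Where the number was below 80, log2 CPM in G3 PGC1aOE minus that in G3 was 0.18 for Insr, 1.36 for Irs2, 0.04 for Pik3ca, 0.19 for Foxo1 and 0.14 for Foxo3, all above 0. In the same libraries it was -0.43 for Irs1, -0.30 for Pik3r1, -0.35 for Akt1, -0.36 for Akt2 and -0.35 for Slc2a4. From 80 upward, all 10 differences lay below 0, at -0.98 for Insr, -1.59 for Irs1, -3.15 for Irs2, -0.68 for Pik3r1, -0.41 for Pik3ca, -0.51 for Akt1, -0.27 for Akt2, -0.05 for Foxo1, -0.68 for Foxo3 and -0.31 for Slc2a4. The lower numbers hold 1 library labelled G3 PGC1aOE and 3 labelled G3, and the higher numbers 2 and 1, so no difference within them can be set against its own spread in both groups. The signs of Akt1, Akt2, Irs1, Pik3r1 and Slc2a4 were the same in both ranges, and for the other 5 genes the negative difference did not hold in the lower range.

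The libraries also differed in how reads were shared between long and short genes. The fitted level of genes of 4202 bp minus that of genes of 931 bp, each relative to the mean of all libraries, was 0.379, -0.586 and -0.358 log2 units in G3 PGC1aOE 1 to 3, against 0.224, 0.074, 0.283 and -0.014 in G3 1 to 4. The 2 libraries that were lowest in long genes were the 2 that were lowest in most of the 10 genes. On the lengths implied by the deposited FPKM, 7 of the 10 genes were longer than the median tested gene of 1955 bp. With this trend removed, the log2 fold change was -0.49 for Insr, -0.76 for Irs1, -0.36 for Irs2, -0.83 for Pik3r1, -0.20 for Pik3ca, -0.59 for Akt1, -0.34 for Akt2, -0.44 for Foxo3 and -0.31 for Slc2a4. That of Foxo1, whose transcript is among the longest, was 0.13 and so lay above 0. The median of the 10 genes was -0.40 with the trend removed and -0.41 with it in place. The part of gene length in the results was not tested. Mitochondrially encoded genes held 27.7%, 32.4% and 42.4% of counts in G3 PGC1aOE 1 to 3 and 24.7%, 26.0%, 31.4% and 34.5% in G3 1 to 4, and the part of this share in the results was not tested.

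Levels were compared between genes per length, as FPKM. Over the 7 libraries Slc2a4 was highest at 223 ± 47.6 FPKM, followed by Akt1 at 191 ± 57.7, Akt2 at 97.8 ± 19.4, Pik3r1 at 71.1 ± 38.3, Foxo3 at 30.4 ± 13.2, Insr at 28.5 ± 13.8, Pik3ca at 7.15 ± 2.38, Irs2 at 5.71 ± 4.52, Foxo1 at 2.23 ± 0.636 and Irs1 at 1.56 ± 0.772 FPKM (SD, n = 7). Neighbours in that order whose ranges over libraries overlapped were Slc2a4 and Akt1, Akt1 and Akt2, Akt2 and Pik3r1, Pik3r1 and Foxo3, Foxo3 and Insr, Pik3ca and Irs2, Irs2 and Foxo1, and Foxo1 and Irs1. On the deposited lengths Insr and Pik3ca did not overlap, with a lowest value of 10.8 FPKM for Insr and a highest of 10.2 FPKM for Pik3ca. The glucose carrier and the AKT genes were thus the most abundant and Foxo1 and the docking genes the least.

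These levels depend on the length used. The length implied by the deposited FPKM and counts equalled the mean length of annotated transcripts for 8 of the 10 genes, short ones included, so that Akt1 was scaled by 965 bp where its longest coding transcript has 2690 bp. With the longest coding transcript of each gene the order was the same except that Insr, at 16.8 FPKM, stood above Foxo3, at 12.5 FPKM. Insr and Pik3ca then overlapped, with a lowest value of 6.37 FPKM for Insr and a highest of 6.38 FPKM for Pik3ca. Slc2a4 was then at 118 FPKM, Akt1 at 68.5 and Akt2 at 32.9 FPKM.

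**Figure D4:**
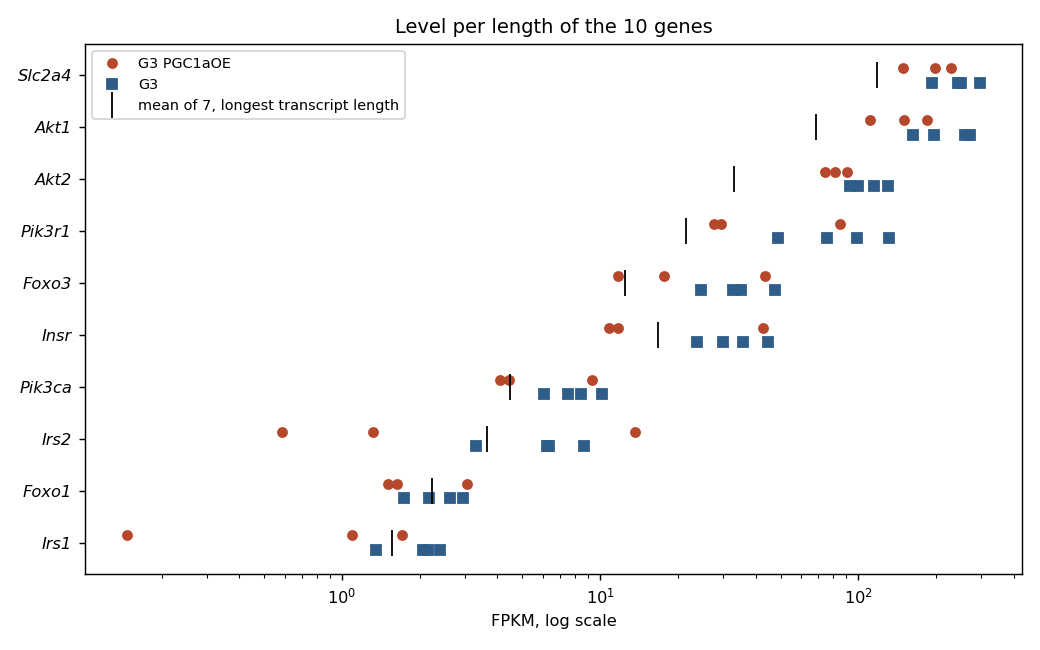
Level per length (FPKM, logarithmic horizontal axis) of the 10 genes in the 3 libraries labelled G3 PGC1aOE (red circles) and the 4 labelled G3 (blue squares), ordered by the mean over the 7 libraries. Black ticks give that mean with the length of the longest coding transcript in place of the deposited length, which lowers Akt1 to 68.5 FPKM and leaves Foxo1 and Irs1 where they were.

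The balance between partner genes was compared as a log2 ratio of FPKM in each library. Akt1 over Akt2 was 1.02, 0.45 and 1.02 in G3 PGC1aOE 1 to 3, against 1.17, 1.54, 0.33 and 0.97 in G3 1 to 4. Akt1 exceeded Akt2 in all 7 libraries, and with the longest coding transcripts it did so too, at ratios of 1.34 to 3.10. Irs1 over Irs2 was -3.00, -1.99 and -0.27 in G3 PGC1aOE 1 to 3, against -1.40, -1.53, -0.68 and -2.68 in G3 1 to 4. Irs2 exceeded Irs1 in every library on the deposited lengths, but in G3 PGC1aOE 3 the order turned with the longest coding transcripts, at a ratio of 1.30.

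Foxo1 over Foxo3 was -3.84, -3.55 and -2.85 in G3 PGC1aOE 1 to 3, against -4.02, -4.01, -3.65 and -3.83 in G3 1 to 4. Foxo3 was more abundant than Foxo1 throughout, on both lengths. Pik3r1 over Pik3ca was 3.19, 2.64 and 2.85 in G3 PGC1aOE 1 to 3, against 3.27, 4.14, 3.16 and 3.01 in G3 1 to 4, so the regulatory subunit message exceeded the catalytic one everywhere, and G3 2 stood above the rest. None of the 4 ratios separated the groups. Differences of the group means, G3 PGC1aOE minus G3, were -0.17 for Akt1 over Akt2 (p = 0.629), -0.18 for Irs1 over Irs2 (p = 0.771), 0.46 for Foxo1 over Foxo3 (p = 0.143) and -0.51 for Pik3r1 over Pik3ca (p = 0.2) in the exact permutation test, 2-sided. Adjusted over the 4 ratios by Benjamini-Hochberg, the exact p-values were 0.771, 0.771, 0.4 and 0.4, and 0.0286 is the smallest that 35 splits allow. Leaving out single libraries turned the sign of the Akt1 over Akt2 and the Irs1 over Irs2 difference. The Foxo1 over Foxo3 difference was 0.18 without G3 PGC1aOE 3, and the Pik3r1 over Pik3ca difference was -0.26 without G3 2.

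Further down the pathway, genes that FOXO factors are known to activate in muscle and heart had mostly fold changes below 0. Of 20 such genes, 19 were below 0 and 1 above, where 49.1% of all tested genes lay below 0. This list was chosen with earlier results of these data known. Its genes were read in the same 7 libraries and are not 20 separate observations. The genes nearest 0 were Pik3ip1 at -0.00, Bcl6 at -0.01, Sod2 at 0.03 and Cdkn1b at -0.04. The median of the 20 genes was -0.44, and none passed the test. As for the 10 genes, this depended on the libraries: for code numbers under 80, log2 CPM in G3 PGC1aOE minus that in G3 was above 0 for 9 genes and below 0 for 11 (median -0.03), and from 80 upward it was above 0 for 1 and below 0 for 19 (median -0.44). The median fold change was -0.67 without G3 PGC1aOE 1, -0.26 without G3 PGC1aOE 2 and -0.29 without G3 PGC1aOE 3, each with 18 of 20 genes below 0. Pdk4, the kinase that turns off pyruvate dehydrogenase, averaged 202 ± 69.9 CPM (SD, n = 3) in G3 PGC1aOE and 430 ± 185 CPM (SD, n = 4) in G3, at -1.09 ± 0.39 (SE) (edgeR, unadjusted p = 0.0179, adjusted p = 0.847). Ulk1, the kinase that starts autophagy, averaged 54.5 ± 8.11 CPM (SD, n = 3) in G3 PGC1aOE and 78.9 ± 5.60 CPM (SD, n = 4) in G3, at -0.53 ± 0.20 (SE) (edgeR, unadjusted p = 0.0243, adjusted p = 0.847). Ulk1 was lower in every G3 PGC1aOE library than in every G3 library, as was Sesn3, a stress-induced inhibitor of mTORC1 signalling, at -0.63 ± 0.33 (SE). The same held for 2.39% of all tested genes. Cat, catalase, was at -0.49 ± 0.28 (SE).

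Among 16 AKT substrates and downstream kinases, 13 had a fold change below 0 and 3 above, with a median of -0.25. Tbc1d4, the AKT substrate AS160 that holds GLUT4 vesicles inside the cell, averaged 52.6 ± 18.4 CPM (SD, n = 3) in G3 PGC1aOE and 87.4 ± 27.2 CPM (SD, n = 4) in G3, at -0.73 ± 0.31 (SE) (edgeR, unadjusted p = 0.0379, adjusted p = 0.847), and its groups overlapped. Tsc1, part of the complex that restrains mTORC1, was at -0.44 ± 0.27 (SE), and Bad, a cell death gene whose protein AKT phosphorylates, at 0.49 ± 0.27 (SE). Of 20 genes listed as brakes of the pathway, 11 were below 0 and 9 above, with a median of -0.05. Whether each of them, Ptpn11 included, acts as a brake in these hearts was not tested. Ptpn11, the phosphatase SHP2, was at -0.69 ± 0.40 (SE) and Phlpp1, a phosphatase that dephosphorylates AKT, at -0.35 ± 0.21 (SE). Trib1, a pseudokinase, was at 0.30 ± 0.20 (SE). Over all lists, each gene counted once, 84 of 117 tested genes lay below 0 with a median of -0.23, and without the 10 genes 74 of 107 did with a median of -0.21.

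**Figure D5:**
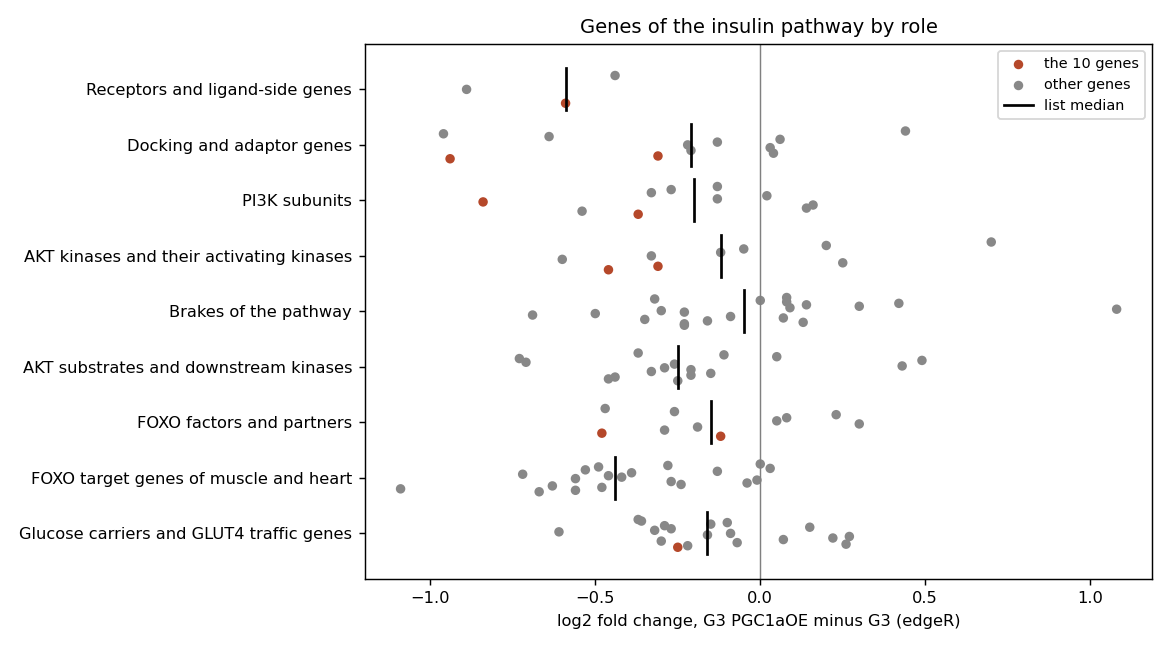
Log2 fold change, G3 PGC1aOE minus G3 (edgeR, horizontal axis), of the tested genes of 9 lists by role, with the 10 genes in red, other genes in grey and list medians as black lines. The FOXO target list has the lowest median of the lists with at least 9 tested genes, at -0.44, and no gene shown passed the test.

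For each of the 10 genes, the tested gene with the most similar profile was the one with the smallest root mean square difference in log2 CPM over the 7 libraries, each gene centred on its own mean, among 6135 genes. It was 0.0354 for Tmem167b beside Foxo1, 0.0556 for Scaf11 beside Pik3ca, 0.0741 for Rnf111 beside Akt1, 0.089 for Mtap beside Akt2 and 0.0967 for Polrmt beside Slc2a4. For the more variable genes it was 0.106 for Cnksr3 beside Insr, 0.119 for Cdc42bpg beside Foxo3, 0.201 for Tnik beside Pik3r1, 0.266 for Pdpr beside Irs1 and 0.654 for Tnks beside Irs2. The search was limited to genes whose log2 CPM averaged 4 or more, which leaves out many genes at the level of Irs1 and Irs2. Among the 10 genes, the one nearest to Insr was Foxo3, at 0.24, with 43 other genes closer, and the one nearest to Pik3r1 was Insr, at 0.28, with 11 other genes closer. Other genes closer than the nearest of the 10 numbered 1964 for Akt1, 1653 for Akt2, 1237 for Slc2a4, 226 for Foxo1 and 197 for Irs1. They numbered 190 for Pik3ca, 65 for Foxo3 and 33 for Irs2. These profiles share libraries, depth and the trend on gene length described above.

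The library kit does not mark strand, so reads of overlapping genes on opposite strands cannot be told apart. Of the exonic bases of Irs1, 30.9% are overlapped by Gm9747 on the opposite strand, which is listed with 0 counts in all 7 libraries. The same holds for 7.78% of Foxo1 with Gm20402 and 2.56% of Irs2 with 9530052E02Rik, neither of which has a row in the table. Akt1, Foxo3 and Slc2a4 shared no stretch of 50 bases with another annotated gene.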

How the data were processed

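RNA from mouse left ventricle was sequenced in 7 libraries, per the labels, after snap freezing, Trizol extraction and an Illumina TruSeq RNA kit that does not mark strand. The authors deposited read counts per Ensembl gene, whole numbers without normalization, and FPKM, which equalled the deposited counts divided by column total and 1 length per gene. CASAVA and Bowtie 0.12.2 with build mm9 are named in the submitters' processing notes. Which program and annotation produced the counts, and how it treated reads with several matching genes, is not given in the sources used here. Gene names matched 21748 of 22027 identifiers, and 279 had none. The number of other sample columns was 0.

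The reference annotation, GENCODE M21, and the RefSeq promoters are of build GRCm38, so coordinates are given for promoter windows only. No protein sequences were used here.

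In edgeR 4.0.16 (R 4.3.3), filterByExpr kept 12674 genes of the count table and left out 9353, and TMM factors scaled the libraries. The test was the quasi-likelihood F-test, robust, 2-sided, fitted on group alone, with p-values adjusted by Benjamini-Hochberg over all tested genes and a threshold of 0.05. The common biological coefficient of variation was 31.2%. CPM used TMM-scaled totals and log2 CPM a prior count of 2. Ratios of FPKM were compared by exact permutation over 35 splits in Python 3.11.15, with SciPy 1.17.1 for exact Poisson intervals. Length trends were fitted by lowess with a span of 0.3.

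The members and the pathway and marker lists were chosen with earlier results of these data known. All 10 genes are named, and from each list up to 3 further tested genes of smallest p, or 4 from the FOXO targets. Some genes that this rule selects are not reported here. Likeness was sought among tested genes with a symbol and a mean log2 CPM of at least 4. Alternatives were scaling by RLE or upper quartile, other filters, DESeq2 1.42.0, limma 3.58.1 with voom weights or on log2 FPKM (pseudocount 1 or 0.1), covariates for the code number and code text, a replicate block, removal of the length trend, the longest coding transcript as length, and each library left out. The unblocked fit of the same 6 libraries, the longest coding transcript and the pathway lists with libraries left out or by code number were chosen after seeing the data. The scripts were tested on simulated data.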

Additional observations from a re-analysis of the deposited data

Results flagged for a closer look

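Among the 4 libraries labelled G3, 1 library stood apart from the other 3 in 2 of the 42 groups of values examined (each of the 10 genes, Ppargc1a, the 4 ratios and the 27 named genes of the lists). Slc2a4 measured 240 CPM in G3 1, and on the scale of log2 CPM the gap to the nearest G3 library was 0.884 of the range. Sort1 measured 27.3 CPM in G3 1, with a gap of 0.907 of the range, where Dixon's critical value for 4 samples is 0.829. Chance gives such a value in about 5% of groups. Without G3 1, the log2 fold change of Slc2a4 was -0.36, against -0.25 with all 7 libraries.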

How the results depend on the processing

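The 10 genes had a fold change below 0 in 195 of 200 alternative values, and none was called under any alternative, and adjusted p-values over the alternatives ran upward from 0.0982, for Insr and Irs2. DESeq2 called 1 gene, Col3a1, and limma voom 0. The replicate block on numbers 1 to 3, which leaves out G3 4, called 6 genes and none of the 10, and the same 6 libraries without the block called 0. The numbers were not shown to pair the samples, since deviations of same-numbered libraries correlated at 0.456, 0.123 and -0.086, and G3 PGC1aOE 3 correlated best with G3 2, at 0.091. The block gave log2 ratio differences of -0.18 for Akt1 over Akt2, -0.55 for Irs1 over Irs2, 0.48 for Foxo1 over Foxo3 and -0.63 for Pik3r1 over Pik3ca, and a median of -0.59 for the 10 genes.

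With each library left out in turn, the median of the 10 genes ran from -0.86 to -0.28, 0 genes were called, and genes at an unadjusted p under 0.05 from 231 to 2464, against 548 with all 7 libraries. Over the same fits Irs2 ran from -2.45 to 0.20, passing 0 without G3 PGC1aOE 2 and, at 0.10, without G3 PGC1aOE 3. Foxo1 ran from -0.36 to 0.03 and was above 0 also with the code number as covariate, at 0.07, and with the length trend removed, at 0.13. Akt1 over Akt2 ran from -0.40 to 0.02 and was above 0 without G3 2, at 0.01, and without G3 PGC1aOE 2. Irs1 over Irs2 ran from -0.92 to 0.44 and was above 0 without G3 3, at 0.12, and without G3 PGC1aOE 1. The cause was not tested. On log2(FPKM + 0.1) the median of all tested genes moved to -0.11 and that of the 10 genes to -0.64, and with voom that of the 10 genes was -0.68.

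Counting error is widest for Irs1 and Irs2, with 20 and 35 reads in G3 PGC1aOE 2. With 3 and 4 libraries, the 95% intervals of the log2 fold changes span from -0.83 to 0.20 in the narrowest case, Akt2, and from -2.47 to 1.84 in the widest, Irs2.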
